A study of Mus musculus with 42 samples.

Results

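The Notch genes described here are 3 ligands (*Dll1*, *Dll3* and *Jag1*), the glycosyltransferase *Lfng*, and 6 transcriptional repressors of the Hes and Hey families (*Hes1*, *Hes5*, *Hes7*, *Hey1*, *Hey2* and *Heyl*). They were chosen by name as a pathway, with earlier results of these data known. Their rows were found by matching the Ensembl identifiers to mouse GENCODE symbols. All 10 were found among the 56953 genes counted, and all 10 passed the filter on low counts in every comparison. They were measured by RNA sequencing of the left and the right side of the heart field, microdissected from each of 21 mouse embryos at stage E8.5i.

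Embryos fell into 3 groups by genotype and by the direction in which the heart tube had looped. There were 5 wild types (*Ccdc40*+/+, rightward looping, 4 males and 1 female), 11 *Ccdc40*lnks/lnks mutants with rightward looping (6 males and 5 females) and 5 *Ccdc40*lnks/lnks mutants with inverted looping (3 males and 2 females). They are called wild types, rightward mutants and inverted mutants. *Ccdc40* encodes a component of the axoneme that motile cilia need to beat, *lnks* is a nonsense allele induced with ENU, and every tissue of a mutant carried it. Most of the tissue sequenced was heart field, from which the heart tube and much of the surrounding embryo had been cut away. Each side was a mixture of cell types, and fewer cells of a type cannot be told apart from less RNA per cell. The groups follow the labels. The study divides the rightward mutants further by laterality, which the labels do not give, so values of that group pool embryos that the study kept apart.

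In Notch signaling, a ligand of the Delta or Jagged family on one cell binds a Notch receptor on its neighbor. The receptor is then cut, and its intracellular part joins the DNA-binding protein RBPJ to switch on genes such as those of the Hes and Hey families. Fringe enzymes, of which *Lfng* encodes one, add sugars to the receptor and change which ligands it responds to. The pathway keeps progenitors undifferentiated in the neural tube, times the formation of somites from the presomitic mesoderm, and patterns the endocardium and the myocardium of the heart.

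RBPJ recognizes a short core, and the letters GTGGGAA were searched on both strands in the 250 bases before the start of each gene, in RefSeq promoters of the build GRCm38.p6. Of the 10 genes, 7 had a promoter in the table, with 2 windows for *Dll1*, and *Hes1*, *Hey1* and *Heyl* were not matched. The core was in the windows of *Lfng*, *Hes5*, *Hes7* and *Hey2*, and it was in 5.42% of all 32851 windows. It was in neither window of *Dll1*, which passed a test of asymmetry below, and *Hes7* and *Hey2* did not pass one. Other forms of the site were not searched. The windows of *Lfng* and *Hes5* are shown because these genes had the largest asymmetries below. Capitals mark the core or its reverse complement TTCCCAC. *Lfng* holds 1 copy, whose last base lies 103 bases before the start. *Hes5* holds 2, on opposite strands, which lie 220 and 77 bases before the start, and 0.161% of all windows held at least 2. A match of letters is a description of the sequence, and binding was not measured.
Lfng, chr5:140607091-140607340, plus strand: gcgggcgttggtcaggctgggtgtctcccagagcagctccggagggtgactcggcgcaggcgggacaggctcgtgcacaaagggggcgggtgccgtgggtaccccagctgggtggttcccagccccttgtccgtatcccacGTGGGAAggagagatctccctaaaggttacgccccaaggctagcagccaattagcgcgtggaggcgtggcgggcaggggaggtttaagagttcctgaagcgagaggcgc
Hes5, chr4:154960673-154960922, plus strand: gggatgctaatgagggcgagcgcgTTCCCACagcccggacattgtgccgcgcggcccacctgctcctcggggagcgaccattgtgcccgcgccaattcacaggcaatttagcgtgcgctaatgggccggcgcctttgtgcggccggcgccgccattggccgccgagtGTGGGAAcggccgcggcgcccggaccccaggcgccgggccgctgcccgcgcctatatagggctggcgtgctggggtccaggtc

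Libraries held between 36073684 and 62970327 counts. Levels are given as CPM, a gene's counts scaled by the size of its library after TMM correction. *Ccdc40* itself was at 15.2 to 26.5 CPM in the 10 libraries of wild types and at 8.83 to 14.8 CPM in the 32 libraries of mutants, so the genotypes did not overlap. Across all genes, edgeR's quasi-likelihood test called right against left 0 genes in wild types, 6 in rightward mutants and 468 in inverted mutants at an adjusted p under 0.05. In wild types 639 genes had an unadjusted p under 0.05, and DESeq2 called 19.

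Per kilobase of exon, the Notch genes spanned a wide range of levels. Over the 42 libraries, the median level was 20.2 CPM per kb for *Hes1*, 14.3 for *Hes5*, 12.1 for *Hey1* and 11.6 for *Jag1*. *Lfng* followed at 5.03 CPM per kb, *Hey2* at 1.54, *Dll1* at 1.53, *Heyl* at 0.429, *Dll3* at 0.316 and *Hes7* at 0.275. In this order, *Jag1* was above *Lfng* in 21 of 21 embryos and *Dll1* above *Heyl* in 21 of 21. Several neighbors were not separated beyond their spread: the mean log2 difference of *Hey1* over *Jag1* was 0.038 ± 0.22 (SD, n = 21), that of *Hey2* over *Dll1* was 0.047 ± 0.73 and that of *Dll3* over *Hes7* was 0.29 ± 0.74. *Hes5* had the second highest median, but it was above *Hey1* in only 8 of 21 embryos.

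**Figure D1:**
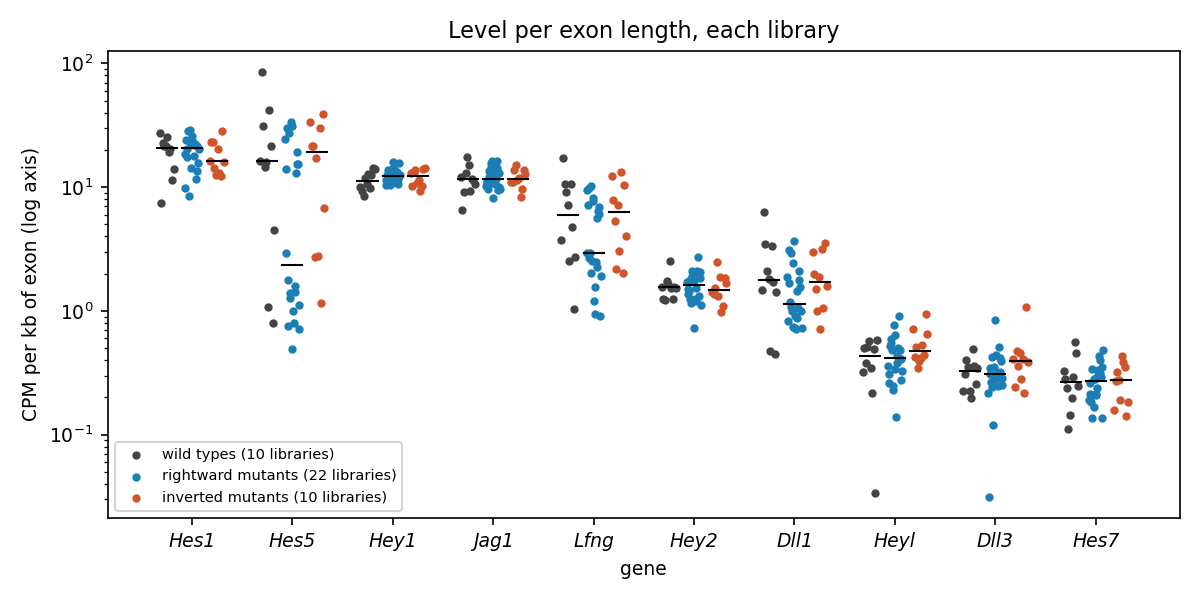
Level of each gene in each library in CPM per kilobase of exon, on a log axis, with genes ordered by their median over 42 libraries. Points are libraries, colored by group, and black bars are group medians; *Hey1* and *Jag1* form tight clusters, whereas *Hes5* extends from 0.493 to 85.2 CPM per kb.

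The genes also differed in how much they varied. *Hey1* ranged from 40.4 to 76.1 CPM over the 42 libraries and *Jag1* from 38.6 to 104 CPM. *Hes1* lay between 25.1 and 97.5 CPM and *Hey2* between 3.57 and 13.5 CPM. By comparison, *Hes5* ranged from 0.676 to 117 CPM, *Lfng* from 2.29 to 43.6 CPM and *Dll1* from 2.22 to 31.2 CPM. *Hes7*, an oscillator of the segmentation clock, had only 10 to 50 counts per library, *Dll3* 4 to 140 and *Heyl* 8 to 218. *Dll1*, *Jag1*, *Hes1*, *Hes5*, *Hes7* and *Hey1* overlap an exon of another gene on the opposite strand, whose reads could be mixed with theirs because the strand setting of the counting is not given in the sources used here.

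Whether the Notch genes differ between the sides of an embryo was asked in each group, with the embryo as a block. In inverted mutants, 3 of the 10 genes passed the test, *Dll1*, *Lfng* and *Hes5*, and all were higher on the left. Over all genes, 2.04% were called in this comparison, and 0.318% were called on the left. The left side was above the right in every embryo for 4 of the 10 genes, *Dll1*, *Dll3*, *Lfng* and *Hes5*, against 7.51% of all genes. The median log2 fold change of the 10 genes, right over left, was -0.23, and that of all genes was -0.005. Because the genes were chosen with earlier results of these data known, these shares are descriptions and no independent test. DESeq2, which called 7.64% of all genes here, called the same 3 genes and *Dll3*, and edgeR called 3 with no filter and 3 with library size alone. However, 0 of the 10 genes passed with no embryo block (adjusted p = 0.121 for *Dll1*, 0.107 for *Lfng* and 0.157 for *Hes5*), 0 in a fit of all 42 libraries (0.318, 0.225 and 0.226, at log2 fold changes of -1.06, -1.43 and -2.63) and 0 with the 3 male embryos alone (0.229, 0.117 and 0.23).

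**Figure D2:**
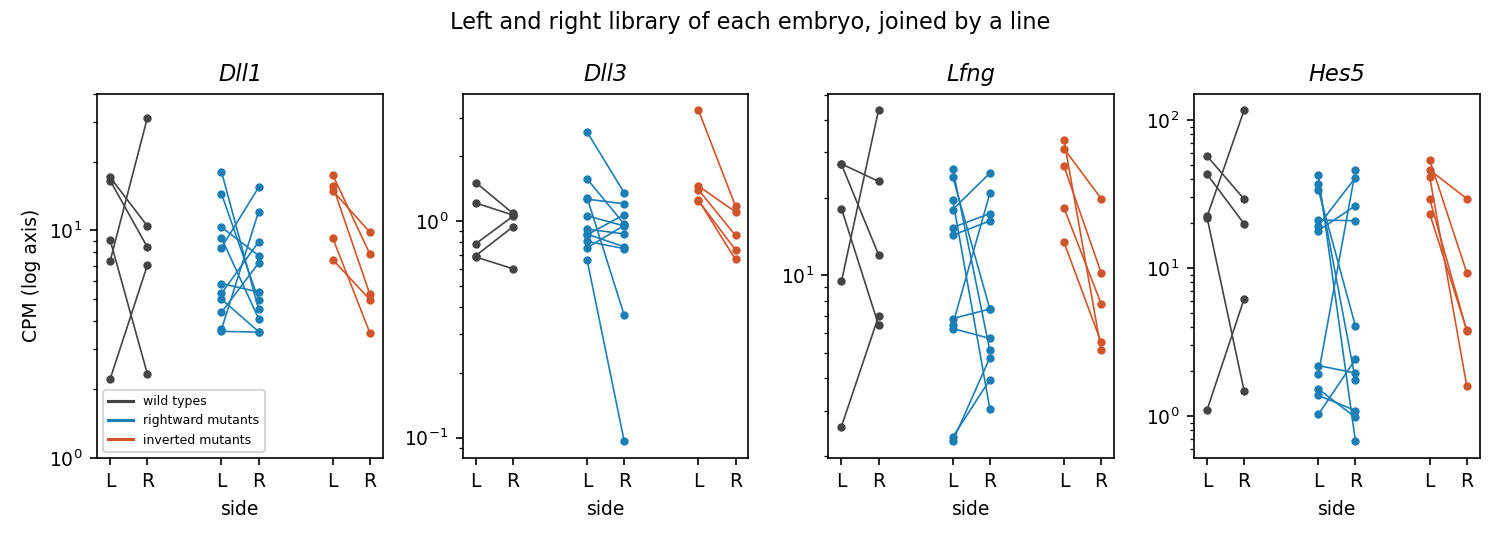
CPM (log axis) of *Dll1*, *Dll3*, *Lfng* and *Hes5* in the left (L) and right (R) library of each embryo, joined by a line and colored by group. All 5 lines of inverted mutants descend from left to right in each panel, and lines of the other groups run both ways.

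*Dll1* (chr17:15587276-15597134, minus strand, GRCm39) encodes a ligand that activates Notch receptors on neighboring cells. In inverted mutants, its left libraries were at 14.9, 7.44, 9.25, 15.7 and 17.5 CPM and the right libraries of the same embryos, in the same order (10_3, 18_2, 2_7, 32_2 and 4_6), at 9.81, 4.96, 3.54, 5.23 and 7.88 CPM. Every embryo was higher on the left, although the ranges of the sides overlapped. The log2 fold change was -1.05 (SE 0.17, edgeR adjusted p = 0.0211). The adjusted p was 0.0617 without embryo 2_7, 0.0864 without 32_2 and 0.0771 without 4_6. An exact two-sided sign-flip test over the 5 embryos gave p = 0.0625, the smallest that 5 embryos allow.

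*Dll3* (chr7:27992978-28001673, minus strand) encodes a divergent ligand that acts within the cell against Notch signaling, best known from somite formation. Its left libraries in inverted mutants were at 1.24, 1.45, 1.40, 1.25 and 3.26 CPM and its right libraries, in the same order of embryos, at 0.736, 1.10, 0.859, 0.665 and 1.17 CPM. Every left library was above every right library, which held for 1.06% of all genes. The log2 fold change of -0.84 (SE 0.20) did not pass edgeR's test (adjusted p = 0.0859), whereas DESeq2 gave an adjusted p of 0.0239. These values rest on 30 to 140 counts per library.

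*Jag1*, a ligand of the Jagged family expressed in the developing heart and its outflow tract, did not pass the test in inverted mutants. Its left libraries were at 66.1, 82.7, 67.7, 49.9 and 82.2 CPM and its right libraries at 65.3, 89.7, 71.1, 57.7 and 76.3 CPM. It was higher on the right in 3 embryos and on the left in 2. The log2 fold change was 0.064, with a 95% interval from -0.072 to 0.20.

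*Lfng* (chr5:140593075-140601300, plus strand), the Fringe enzyme, was at 30.9, 13.4, 18.2, 33.3 and 26.4 CPM in the left libraries of inverted mutants. The right libraries of the same embryos were at 19.8, 5.51, 7.77, 5.17 and 10.2 CPM. All 5 were higher on the left, by the most in embryo 32_2 and by the least in 10_3. The log2 fold change was -1.42 (SE 0.25, edgeR adjusted p = 0.0306). The adjusted p was 0.0898 without embryo 18_2, 0.0703 without 2_7 and 0.0906 without 4_6.

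*Hes5* (chr4:155045373-155046828, plus strand), a Notch target that maintains neural progenitors, had the largest difference among the 10 genes. Its left libraries in inverted mutants were at 46.0, 29.3, 23.4, 41.5 and 53.8 CPM. The right libraries were at 29.4, 3.76, 3.81, 1.60 and 9.30 CPM. Embryo 10_3 was high on both sides, and the other 4 were high on the left and low on the right. The log2 fold change was -2.61 (SE 0.48, edgeR adjusted p = 0.0342). Without embryo 10_3 it was -3.12 (adjusted p = 0.00715), and the adjusted p was 0.117 without 18_2, 0.0915 without 2_7, 0.0693 without 32_2 and 0.101 without 4_6.

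*Hes1*, a target of Notch and of other pathways in many progenitors, did not share this pattern. Its left libraries in inverted mutants were at 55.1, 78.6, 42.01, 44.3 and 95.2 CPM, and its right libraries were at 78.2, 47.9, 68.3, 41.6 and 54.1 CPM. It was higher on the left in 3 embryos and on the right in 2, and the log2 fold change was -0.071 (95% interval from -0.59 to 0.45, edgeR adjusted p = 0.923). *Hes7* had a log2 fold change of 0.41, with an interval from -0.27 to 1.08.

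The Hey genes encode repressors that act downstream of Notch in heart and vessels. *Hey1* had a log2 fold change of -0.0038 in inverted mutants (95% interval from -0.18 to 0.17) and *Hey2*, which marks ventricular myocardium, of 0.25 (from -0.085 to 0.59). *Heyl* had a log2 fold change of -0.39 (SE 0.16). It was higher on the left in 4 of 5 embryos, and its edgeR adjusted p was 0.292 with an unadjusted p of 0.0381. None of the 3 passed the test by either edgeR or DESeq2.

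**Figure D3:**
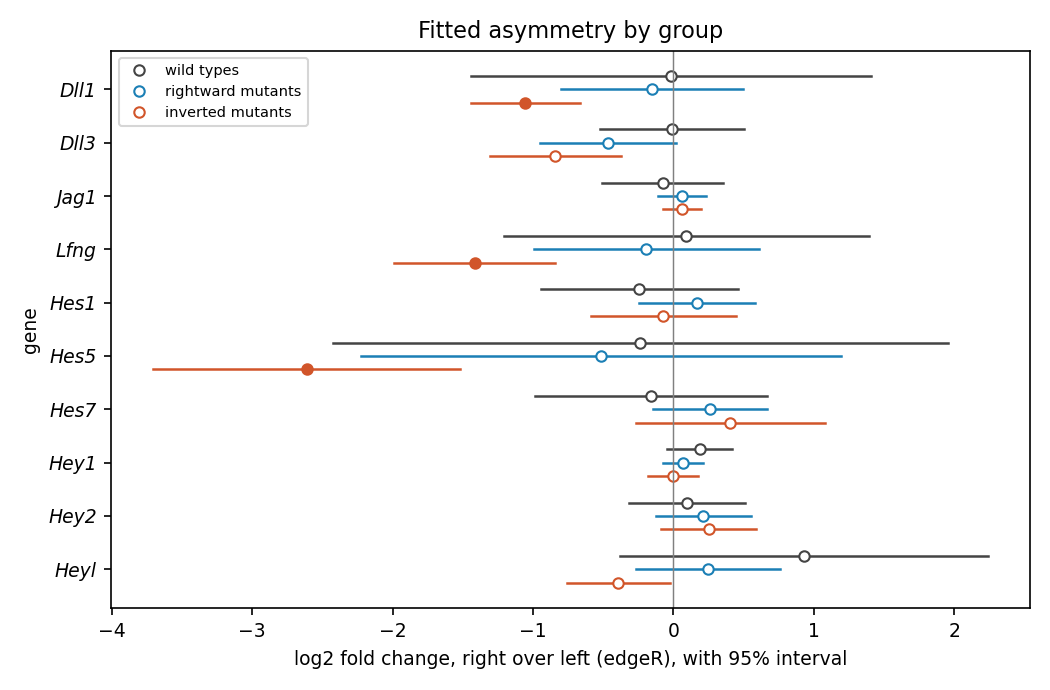
Fitted log2 fold change of right over left for each gene in wild types, rightward mutants and inverted mutants, with 95% intervals; filled points have an adjusted p under 0.05. Only *Dll1*, *Lfng* and *Hes5* in inverted mutants are filled, at -1.05, -1.42 and -2.61.

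In wild types, 0 of the 10 genes passed edgeR's test, which called 0% of all genes. None of the 10 had an unadjusted p under 0.05, and DESeq2 called 0 of them and 19 genes in all. The sides of single embryos were far from equal, however. Left and right levels of *Hes5* were 22.3 and 117 CPM in embryo 10_1, 43.0 and 19.9 CPM in 17_7, 21.9 and 1.47 CPM in 22_4, 57.1 and 29.2 CPM in 7_1 and 1.10 and 6.20 CPM in 8_1. Thus 3 wild types were higher on the left and 2 on the right, and the log2 ratio averaged -0.22 ± 2.67 (SD, n = 5). *Dll1* and *Lfng* took the same directions in the same embryos, with log2 ratios from -1.93 to 2.08 for *Dll1* and from -1.49 to 2.20 for *Lfng*. The 95% intervals of the fits were wide, from -1.44 to 1.41 for *Dll1*, from -1.21 to 1.39 for *Lfng* and from -2.43 to 1.95 for *Hes5*. Fitted log2 fold changes were -0.0095 for *Dll3*, -0.076 for *Jag1*, -0.24 for *Hes1*, -0.16 for *Hes7*, 0.19 for *Hey1*, 0.096 for *Hey2* and 0.93 for *Heyl*. Without embryo 10_1, those of *Jag1* and *Hes1* changed sign, each to 0.13. *Heyl* had 8 counts in the left library of embryo 8_1 and 165 in the right, or 0.180 and 3.10 CPM, and without this embryo the log2 fold change of *Heyl* was 0.39.

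In rightward mutants, 0 of the 10 genes passed edgeR's test, which called 0.0263% of all genes. None had an unadjusted p under 0.05, and DESeq2 called 0 of the 10 and 31 genes in all. The log2 ratio of *Hes5* had a lowest value of -5.89, a median of -0.17 and a highest value of 4.54 over the 11 embryos, and 7 were higher on the left. Left and right levels were 42.5 and 0.676 CPM in embryo 1_6 and 1.92 and 45.7 CPM in embryo 19_6. The same embryos had the lowest and the highest log2 ratio of *Dll1*, -1.998 and 1.71, and of *Lfng*, -2.67 and 1.68. For *Dll3*, the left library was above the right in 9 of 11 embryos. Its log2 fold change was -0.47 (SE 0.23) with an unadjusted p of 0.0597 in edgeR's test. Its lowest log2 ratio was -2.32 in embryo 15_5, where the right library had 4 counts. Log2 fold changes of the other genes were -0.15 for *Dll1*, -0.19 for *Lfng*, -0.52 for *Hes5*, 0.060 for *Jag1*, 0.17 for *Hes1*, 0.26 for *Hes7*, 0.069 for *Hey1*, 0.21 for *Hey2* and 0.25 for *Heyl*.

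**Figure D4:**
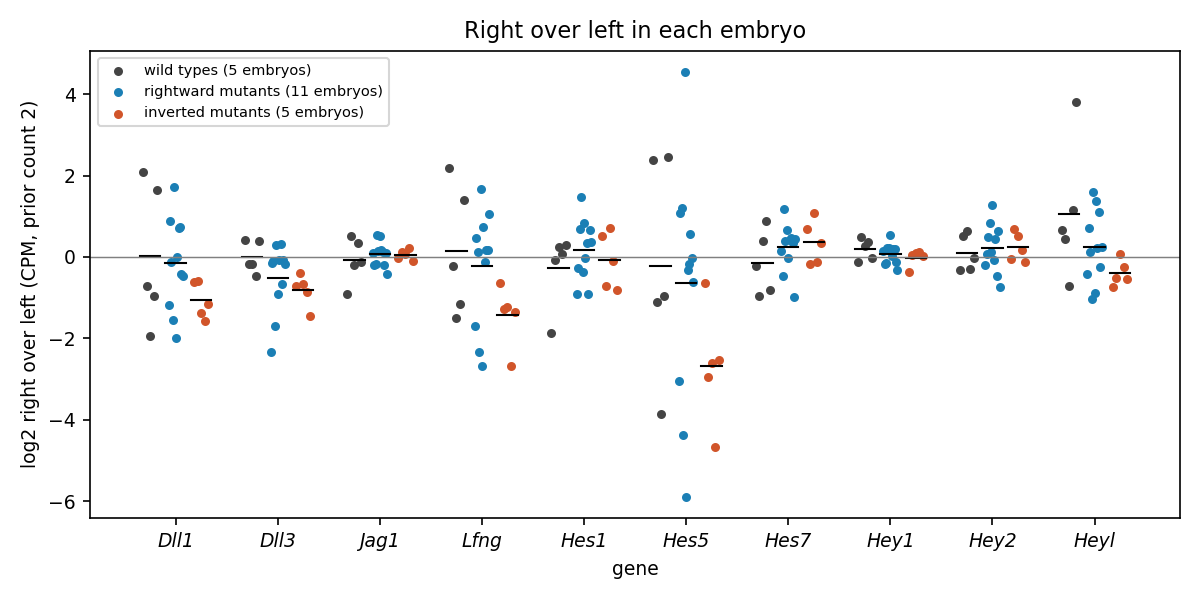
Log2 ratio of right over left CPM, with a prior count of 2, for each gene in each embryo, colored by group; black bars are group means. Inverted mutants lie below 0 for *Dll1*, *Dll3*, *Lfng* and *Hes5*, and the rightward mutants overlap them, with a range that extends from -5.89 to 4.54 for *Hes5*.

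Levels of *Hes5* left a gap between low and high libraries. With a limit of 10 CPM chosen after its values were seen, 19 libraries were at or below 9.30 CPM and 23 at or above 17.9 CPM. Among the wild types, 3 were above the limit on both sides, 1 on the left alone and 1 on neither side. Among the rightward mutants, 3 were above it on both sides, 3 on the left alone, 1 on the right alone and 4 on neither side. Among the inverted mutants, 1 was above it on both sides and 4 on the left alone.

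The difference of asymmetry between groups was tested in 1 fit of all 42 libraries, which asks whether looping direction goes with the asymmetry of these genes. Between inverted and rightward mutants, 0 of the 10 genes passed edgeR's test, which called 0.311% of all genes. None had an unadjusted p under 0.05, and DESeq2 called 0 of the 10 and 426 genes in all. The difference in log2 fold change was -2.11 for *Hes5* (95% interval from -4.70 to 0.48), -1.24 for *Lfng* (from -2.60 to 0.12), -0.91 for *Dll1* (from -2.12 to 0.29) and -0.39 for *Dll3* (from -1.10 to 0.33). It was -0.65 for *Heyl* and between -0.26 (*Hes1*) and 0.13 (*Hes7*) for *Jag1*, *Hes1*, *Hes7*, *Hey1* and *Hey2*. Exact two-sided permutation tests of 5 against 11 embryos gave p = 0.154 for *Hes5*, p = 0.0957 for *Lfng* and p = 0.104 for *Dll1*, without adjustment for the 20 tests of this kind. The asymmetry of inverted mutants was thus not shown to differ from that of rightward mutants. Between rightward mutants and wild types, 0 of 10 passed edgeR's test, which called 0% of all genes, with 800 genes at an unadjusted p under 0.05. None of the 10 was among these 800, and DESeq2 called 0 genes. Differences there were -0.67 for *Heyl*, -0.46 for *Dll3*, -0.29 for *Hes5*, -0.28 for *Lfng*, -0.14 for *Dll1* and -0.12 for *Hey1*. They were 0.11 for *Hey2*, 0.13 for *Jag1*, 0.41 for *Hes1* and 0.42 for *Hes7*. Without wild type 8_1, the difference of *Heyl* was -0.13. Without wild type 10_1, those of *Dll1*, *Lfng* and *Hes5* were 0.40, 0.24 and 0.45.

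Levels on 1 side were compared between groups with sex as a covariate. In left libraries of inverted against rightward mutants, 0 of 10 genes passed edgeR's test, which called 0.0121% of all genes. None had an unadjusted p under 0.05, and DESeq2 called 0 of the 10 and 84 genes in all. The log2 differences there were 1.19 for *Hes5* (95% interval from -0.39 to 2.77), 0.94 for *Lfng* (from -0.078 to 1.95), 0.68 for *Dll1* (from -0.15 to 1.52) and 0.58 for *Dll3* (from -0.048 to 1.22). *Heyl* was at 0.58, and *Jag1*, *Hes1*, *Hes7*, *Hey1* and *Hey2* were between -0.13 (*Hey2*) and 0.0032 (*Hey1*). In right libraries, 0 of 10 passed (edgeR called 0.00805% of all genes), and *Hes5* differed by -0.85 (from -3.01 to 1.31), *Lfng* by -0.19 and *Dll1* by -0.23. The others, *Dll3*, *Jag1*, *Hes1*, *Hes7*, *Hey1*, *Hey2* and *Heyl*, were between -0.27 (*Hes1*) and 0.089 (*Dll3*). Between rightward mutants and wild types, 0 of 10 passed in left libraries, where edgeR called 0.0242% of all genes, and 0 of 10 in right libraries, where it called 0.0121%. On the left, the log2 differences were -0.63 for *Hes5*, -0.34 for *Dll1*, -0.30 for *Hes7*, -0.21 for *Lfng*, 0.22 for *Dll3* and 0.64 for *Heyl*, with *Hes1*, *Jag1*, *Hey2* and *Hey1* between -0.0049 (*Hes1*) and 0.17 (*Hey1*). On the right, they were -0.84 for *Hes5*, -0.57 for *Dll1*, -0.52 for *Lfng*, -0.16 for *Dll3* and 0.21 for *Hes1*, with *Heyl*, *Hes7*, *Hey1*, *Jag1* and *Hey2* between -0.0051 (*Heyl*) and 0.099 (*Hey2*). Without wild type 10_1, the right-side differences were 0.24 for *Hes5*, 0.061 for *Dll1* and -0.017 for *Lfng*. Without wild type 8_1, the left-side differences were -1.11 for *Hes5*, -0.74 for *Dll1*, -0.59 for *Lfng* and 0.25 for *Heyl*. In these 3 comparisons, too, none of the 10 had an unadjusted p under 0.05 and DESeq2 called 0 of them.

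Group medians of *Jag1*, *Hey1* and *Hey2* lay close together, and those of *Hes5*, *Lfng* and *Dll1* were further apart. Median levels of *Jag1* lay between 66.4 and 71.1 CPM over the 3 groups and both sides, those of *Hey1* between 48.4 and 62.9 CPM and those of *Hey2* between 6.78 and 8.66 CPM. Median levels of *Hes5* were 22.3 and 19.9 CPM in left and right libraries of wild types, 17.9 and 2.42 CPM in rightward mutants and 41.5 and 3.81 CPM in inverted mutants. For *Lfng* they were 18.2 and 12.0, 14.3 and 7.42, and 26.4 and 7.77 CPM in the same order. For *Dll1* they were 9.06 and 8.45, 5.84 and 5.36, and 14.9 and 5.23 CPM.

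The log2 ratios of *Dll1*, *Lfng* and *Hes5* went together over the 21 embryos. Pearson's r was 0.93 for *Lfng* and *Hes5*, 0.918 for *Dll1* and *Hes5* and 0.895 for *Dll1* and *Lfng*. *Dll3* followed *Lfng* with r = 0.737 and *Heyl* followed *Dll1* with r = 0.722. By comparison, *Jag1* went with *Hey1* (r = 0.655) and against *Lfng* (r = -0.618). *Hes7* had no r beyond 0.2 in size with any other member. These are descriptions over embryos of 3 groups, and the ratios of an embryo come from the same pair of libraries.

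The genes whose levels were most like each member over the 42 libraries, among 15246 genes, were for *Lfng* the neural transcription factor genes *Pou3f2* (r = 0.956) and *Foxb1* (r = 0.951) with *Fam181a* (r = 0.953). For *Hes5* they were *Gm54109* (r = 0.965), *Sox1ot* (r = 0.961), a transcript of the *Sox1* locus, and the neural adhesion gene *Nrcam* (r = 0.96). For *Dll1* they were *Apba2* (r = 0.922), *Nell2* and *Lrrn1* (both r = 0.907). *Hey1* was most like *Isl1* (r = 0.788), a gene of heart progenitors, and *Hey2* most like *Nkx2-3* (r = 0.793). *Hes1* was most like *Stk11* (r = 0.953), *Jag1* like *Plekhg3* (r = 0.766), *Heyl* like *Abca9* (r = 0.702), *Dll3* like *C030013E06Rik* (r = 0.618) and *Hes7* like *Pheta1* (r = 0.53).

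The other genes of the pathway were described as a list of 42, of which 41 passed the filter. None of the 41 passed edgeR's test of asymmetry in wild types, rightward mutants or inverted mutants, with 2, 3 and 8 at an unadjusted p under 0.05, against 2.76%, 3.59% and 15.1% of all genes. DESeq2 called 0, 0 and 4 of them, against 0.082%, 0.136% and 7.64% of all genes, and gave 1 no adjusted p in inverted mutants. Neither count is read as particular to the list. Each of the 4 receptors had counts in every library. Medians over the 42 libraries were 24.4 CPM for *Notch1*, 50.4 CPM for *Notch2*, 43.1 CPM for *Notch3* and 2.80 CPM for *Notch4*. None of the 4 receptors passed edgeR's test of asymmetry. The 4 that DESeq2 called, *Hes3*, *Dtx4*, *Neurl1b* and *Dlk1*, did not pass edgeR's test and were chosen after their values were seen. In edgeR's fit of inverted mutants, *Hes3*, a neural Hes gene, had a log2 fold change of -4.24 (SE 0.93, edgeR adjusted p = 0.0634), and *Dtx4*, of the Deltex family of Notch regulators, had -0.82 (adjusted p = 0.052). *Neurl1b*, a ubiquitin ligase that acts on ligands, had 0.82 (adjusted p = 0.0805), and *Dlk1*, a non-canonical ligand, had 0.42 (adjusted p = 0.108). *Hes3* ranged from 0 to 51.5 CPM over the libraries.

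Markers of other tissues in the dissected tissue moved with *Dll1*, *Lfng* and *Hes5*. The summed level of 8 neural tube markers in inverted mutants was 90.9 to 152 CPM in left libraries and 48.5 to 106 CPM in right libraries, and it was higher on the left in 5 of 5 embryos. All 8 had a log2 fold change below 0, and *Pax6* (-2.02, adjusted p = 0.0309), *Olig2* (-1.77, adjusted p = 0.0441) and *Nkx6-1* (-1.45, adjusted p = 0.0424) passed edgeR's test. An unadjusted p was under 0.05 for 7 of the 8, against 15.1% of all genes, and DESeq2 called 7, against 7.64%. The marker lists, too, were chosen with earlier results of these data known, so their shares are descriptions. The summed level of 8 somite markers was 145.5 to 229 CPM on the left and 92.2 to 155 CPM on the right, also higher on the left in 5 of 5, and 0 of the 8 passed, with 5 at an unadjusted p under 0.05 and 2 called by DESeq2. The part of these tissues in the asymmetry of the Notch genes was not tested. Of the defining neural markers, *Sox1* was at 0 in 6 of 42 libraries, *Olig2* in 12 and *Neurog2* in 6.

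Markers of the heart moved the other way. The summed level of 8 heart field markers in inverted mutants was 460 to 719 CPM on the left and 723 to 997 CPM on the right, and 4 of 8 passed edgeR's test as higher on the right, *Nkx2-5*, *Tbx5*, *Mef2c* and *Wnt2*, against 1.72% of all genes. Of 6 muscle markers of the heart tube, 5 had a log2 fold change above 0 and 1 below 0. Of the 6, 4 passed as higher on the right, 5 had an unadjusted p under 0.05 and DESeq2 called 5. Their sum was 1043 to 2068 CPM on the left and 1945 to 4079 CPM on the right. The sum of 8 endothelial and endocardial markers was higher on the right in 5 of 5 embryos. Of the 8, 7 had a log2 fold change above 0 and 1 below 0. Only *Nfatc1* passed edgeR's test (log2 fold change 0.54, adjusted p = 0.0382), against the same 1.72% of all genes. An unadjusted p was under 0.05 for 4 of the 8, against 15.1% of all genes, and DESeq2 called 3, against 7.64%. By edgeR, none of the markers of foregut endoderm, blood or neural crest passed, nor any of the 6 tested markers of presomitic mesoderm. An unadjusted p was under 0.05 for 2 of 6 foregut markers and 1 presomitic marker, and DESeq2 called 1 foregut marker, against the same 15.1% and 7.64% of all genes. *Msgn1*, which defines presomitic mesoderm, was at 0 in 33 of 42 libraries and *Mesp1* in 8.

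In the other groups the markers went both ways. In wild types, the neural tube sum was higher on the left in 3 embryos and on the right in 2, and in rightward mutants in 5 and 6. The somite sum was higher on the right in 4 of 5 wild types and in 8 of 11 rightward mutants. Over the 21 embryos, the log2 ratio of the neural tube sum had r = 0.914 with that of *Lfng*, 0.852 with *Dll1*, 0.844 with *Hes5* and 0.718 with *Dll3*. The somite sum had r = 0.697 with *Lfng*, 0.577 with *Dll1*, 0.596 with *Hes5* and 0.534 with *Dll3*. The heart field sum had r = -0.832 with *Lfng*, -0.85 with *Dll1* and -0.77 with *Hes5*, and r = 0.708 with *Jag1*. With *Lfng*, r was -0.734 for heart tube muscle, -0.629 for foregut endoderm, -0.574 for endothelium and endocardium and -0.51 for presomitic mesoderm. It was 0.342 for blood and 0.0879 for neural crest markers. Both ratios of an embryo come from the same libraries, and the values of r are descriptions.

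**Figure D5:**
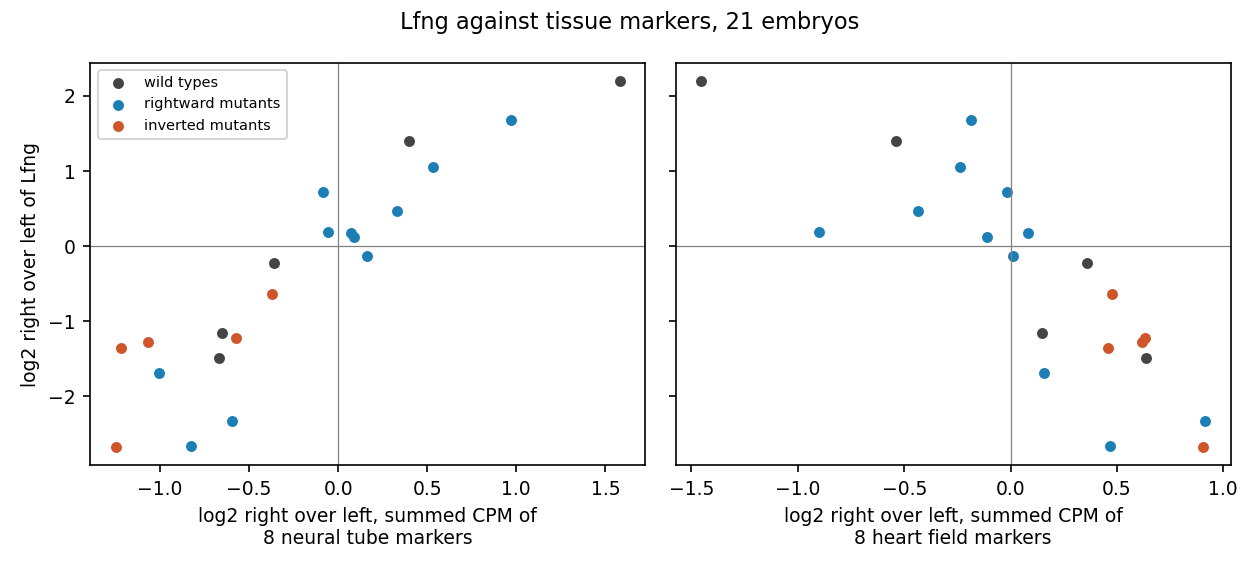
Log2 ratio of right over left of *Lfng* in 21 embryos against that of the summed CPM of 8 neural tube markers (left panel) and 8 heart field markers (right panel), colored by group. Points rise with the neural tube markers (r = 0.914) and descend with the heart field markers (r = -0.832).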

How the data were processed

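The authors trimmed adapters, removed duplicates, aligned paired reads of polyadenylated RNA with STAR (GRCm39) and used featureCounts of Subread 2.0.6 to count them per Ensembl gene. They deposited raw counts per gene, without normalization or a filter, for 42 libraries. The strand setting is not given in the sources used here, and *Dll1*, *Jag1*, *Hes1*, *Hes5*, *Hes7* and *Hey1* overlap an exon on the opposite strand, so that reads of both could be mixed. GENCODE symbols matched 56310 of 56953 identifiers.

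Counts were tested with edgeR 4.0.16 (quasi-likelihood, TMM, Benjamini-Hochberg over all genes tested) after filterByExpr (at least 5 counts, a total of 10, and settings of 50 and 0.2 for the group size), in R 4.3.3. Groups came from the genotype, looping and side labels. The fits of asymmetry had a block for the embryo, because both libraries with 1 number in the labels come from the same animal. Over the 2000 most variable genes, residuals of both libraries correlated with a median r of 0.311 and a lowest r of -0.085. In 19 of 21 embryos r was over 0.1. Among libraries of the opposite side, 21 of the 42 libraries were most like that of their own embryo. Differences of asymmetry were interactions in a fit of all libraries, and levels of 1 side carried sex. Intervals are 95% intervals of the fit. Log2 ratios per embryo used a prior count of 2, and exact tests, 30 sign-flip and 20 permutation tests in all, were two-sided and unadjusted. No library was a copy of another, since chi-square per gene was at least 5.29 in all 861 pairs.

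The genes and the marker lists were chosen with earlier results of these data known. All 10 genes are named in every comparison, and other pathway genes and markers are counted by list. The genes most like each member are the 3 with the highest r among those with a mean of at least 1 CPM, of which the text names at least the first. Other pathway genes are named that edgeR did not call, outside this rule, because DESeq2 called them. The tests were checked on simulated data. Alternatives were DESeq2 1.42.0, no filter, library size alone, no embryo block, no sex term, males alone, 1 fit of all libraries and each embryo left out in turn.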

Additional observations from a re-analysis of the deposited data

Results flagged for a closer look

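Groups of 5 embryos were searched for a value far from the other 4, in 60 sets of levels and log2 ratios, and 7 stood apart by Dixon's test with a critical value of 0.71. Chance flags about 1 set in 20 where sets are independent and normally spread. Here levels were tested as CPM without a log scale, and levels of some genes went together (r = 0.938 for *Lfng* and *Hes5*), so this rate is a rough guide. Wild type embryo 10_1 accounts for 3 of them. Its right library was at 31.2 CPM for *Dll1*, where the other wild types were at 2.34 to 10.5 CPM, and at 117 CPM for *Hes5*, where the others were at 1.47 to 29.2 CPM. Its log2 ratio of *Hes1* was -1.87, and those of the others were -0.09 to 0.30.

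In inverted mutants, the left library of embryo 4_6 was at 3.26 CPM for *Dll3*, against 1.24 to 1.45 CPM in the others. The right library of embryo 10_3 was at 29.4 CPM for *Hes5*, against 1.60 to 9.30 CPM, and its log2 ratio of *Hey1* was -0.37, against 0.04 to 0.12. The left library of wild type 17_7 was at 6.01 CPM for *Hey2*, where the others were at 7.58 to 8.09 CPM.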

How the results depend on the processing

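Of the 10 genes in inverted mutants, 4 were called by DESeq2, 3 with no filter and 3 with library size alone. The 3 calls, *Dll1*, *Lfng* and *Hes5*, became 0 in the fit of all 42 libraries, 0 with males alone and 0 with no replicate block, where the pairing by embryo is given up, and 0 to 3 with an embryo left out (0 without 2_7 or 4_6, 3 without 10_3). Their log2 fold changes stayed below 0 in every alternative. Over all genes, calls in inverted mutants were 141 in the fit of all libraries, 1755 by DESeq2, 942 with no filter, 305 with no replicate block, 53 with males alone and 138 to 446 with an embryo left out. In rightward mutants they were 31 by DESeq2, 1 with no replicate block, 1 with males alone and 2 to 8, and in wild types 19 by DESeq2, 2 with no filter, 1 in the fit of all libraries and 0 to 0. Inverted against rightward asymmetry gave 426 by DESeq2, 131 with no filter, 17 with no replicate block and 18 to 158. Levels of inverted against rightward mutants gave 84 by DESeq2 and 2 to 6 on the left, and 16 by DESeq2, 0 with no sex term and 0 to 4 on the right. Levels of rightward mutants against wild types gave 20 by DESeq2, 11 with no filter and 1 to 11 on the left, and 6, 8 and 0 to 12 on the right. The cause was not tested.

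Values near 0 often changed sign with an embryo left out, and only changes of sign that moved a value by more than its SE are given. With males alone, *Jag1* and *Hes1* in rightward mutants went to -0.044 and -0.061. With an embryo left out, log2 values ranged in wild types from -0.23 to 0.13 for *Jag1* and from -0.38 to 0.13 for *Hes1*, in inverted mutants from -0.039 to 0.082 for *Hey1*, and between the asymmetries of rightward mutants and wild types from -0.072 to 0.28 for *Jag1*. On the right, *Hes5* ranged from -1.58 to 0.35 between mutants, and between rightward mutants and wild types *Dll1* ranged from -0.84 to 0.061 and *Hes5* from -1.66 to 0.24. In these the sign changed by more than the SE without wild type 10_1, except for *Hey1* (without 10_3) and *Hes5* between mutants (without 19_6). None of these passed in either fit.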
